A study of Caenorhabditis elegans with 2 samples.

Results

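The regions described here were strong peaks at divergent shared promoters, stretches of DNA next to the starts of genes that are read in opposite directions. They came from chromatin immunoprecipitation with sequencing (ChIP-seq) of DAF-8 carrying a fluorescent tag, in whole Caenorhabditis elegans larvae. A region was selected on its measured signal in the authors' ranked list comparing the 2 true replicates, with 35 as the minimum. Its summit had to lie over 200 bp from any tRNA, snRNA, snoRNA or rRNA gene, and from 1000 bp upstream to 250 bp downstream of protein-coding starts on both strands. Of 101032 ranked peaks, 6278 reached the minimum signal, and 192 of these, or 3.06%, met the other conditions. Among all ranked peaks 2550, or 2.52%, lay at such promoters. The signal is thus part of the choice, and signals are given below as a description.

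The study had 1 group of 2 biological replicates, and the labels do not say how the cultures were kept apart. All worms were of strain OP790, which carries the integrated transgene wgIs790 with daf-8::TY1 EGFP 3xFLAG and unc-119(+), in an unc-119(tm4063) background. They were fourth-stage (L4) larvae, 47 hours old, grown from hatchlings starved after bleaching, and immunoprecipitation used an anti-GFP antibody, although 1 label names daf-8 as the antibody. Whole animals were used, so the cells in which a region was occupied cannot be told apart, and the tagged protein came from an added transgene. A worm without the tag and an input library were not analysed here, so whether recovery at these regions depends on the tagged protein was not tested. The lists hold no read counts, so depth is unknown.

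DAF-8 belongs to the receptor-activated SMAD proteins and works in the DAF-7 TGF-beta pathway, which keeps larvae from entering the dauer stage, a long-lived resting form. SMAD proteins act in the nucleus with partner factors, and their DNA-binding domain recognises the short sequence GTCT. Divergent genes can share regulatory DNA between their starts, so a peak there cannot be assigned to either gene by position alone. In C. elegans many annotated starts mark the site where a leader RNA is spliced on, and transcription can begin further upstream.

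The strongest region and 2 others at chaperone genes are shown first, chosen because they carry the paired TTC and GAA blocks recognised by heat shock factor in many species. Of the 9 regions with a chaperone gene 6 had such a site, beside 26 of all 192 regions, or 13.5%. The 26 include these 6. Promoters of chaperone genes at no region were not searched, so whether the site goes with the signal was not tested. The 6 include 2 separate hsp-90/C47E8.4 regions and dnj-28/supr-1, whose sequence has 51 copies in the genome. Y55F3AR.2/cct-8, rpn-3/hsp-110 and nhr-47/dnj-19 had none. Capitals mark TTCNNGAA, where N is any base, which reads the same on both strands. Sequences are from the RefSeq genome, WBcel235 build (ce11), plus strand, 100 bp to either side of the summit and cut where an annotated UTR begins. The F44E5.5/F44E5.4 region (F44E5.5 on the plus strand, F44E5.4 on the minus strand, both of the Hsp70 family) is chrII:11759401-11759601 and has 4 such sites. The hsp-90 region, shared with C47E8.4, is chrV:14685748-14685948 and has 1. The region of hsp-16.41 and hsp-16.2, small heat shock proteins that bind unfolded proteins, is chrV:1804985-1805177 and has 2.
F44E5.5/F44E5.4: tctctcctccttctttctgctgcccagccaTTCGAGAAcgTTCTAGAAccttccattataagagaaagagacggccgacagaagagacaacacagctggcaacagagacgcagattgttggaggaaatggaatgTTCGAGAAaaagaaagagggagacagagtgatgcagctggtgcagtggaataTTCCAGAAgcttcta
hsp-90/C47E8.4: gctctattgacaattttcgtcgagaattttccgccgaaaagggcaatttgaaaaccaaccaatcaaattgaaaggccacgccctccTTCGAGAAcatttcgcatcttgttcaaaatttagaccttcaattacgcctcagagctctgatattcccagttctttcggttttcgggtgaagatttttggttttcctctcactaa
hsp-16.41/hsp-16.2: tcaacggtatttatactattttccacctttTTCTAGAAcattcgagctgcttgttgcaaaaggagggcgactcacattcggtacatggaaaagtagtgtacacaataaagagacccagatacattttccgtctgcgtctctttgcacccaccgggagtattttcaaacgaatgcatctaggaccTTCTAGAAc

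A second set is shown because it carries CGCTCCAC or CACTCCGC, which recurred among the strongest regions. Both words were chosen after these sequences were seen and after all 2080 words of 6 bases and all 32896 words of 8 bases had been compared between groups of regions. Capitals mark either word on either strand, so they also stand over GTGGAGCG and GCGGAGTG. The tasp-1/K01G5.10 region is chrIII:10759175-10759306, and tasp-1 is named for a threonine protease family. The Y17G9B.5/rpl-20 region is chrIV:4749986-4750186, the tag-340/nhl-2 region chrIII:4899879-4900079 and the rps-1/ifet-1 region chrIII:4475587-4475787. The K11H12.8/rpl-15 region is chrIV:654861-655061 and the lin-54/rpl-12 region chrIV:13240652-13240805. Genes named rpl and rps encode proteins of the large and small subunits of the cytosolic ribosome.
tasp-1/K01G5.10: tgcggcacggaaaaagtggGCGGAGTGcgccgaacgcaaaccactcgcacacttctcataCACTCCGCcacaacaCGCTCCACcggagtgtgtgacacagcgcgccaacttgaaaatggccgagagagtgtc
Y17G9B.5/rpl-20: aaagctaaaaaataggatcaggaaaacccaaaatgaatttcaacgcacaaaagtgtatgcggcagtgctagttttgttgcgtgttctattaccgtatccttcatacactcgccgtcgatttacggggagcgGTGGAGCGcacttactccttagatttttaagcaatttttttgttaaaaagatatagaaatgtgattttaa
tag-340/nhl-2: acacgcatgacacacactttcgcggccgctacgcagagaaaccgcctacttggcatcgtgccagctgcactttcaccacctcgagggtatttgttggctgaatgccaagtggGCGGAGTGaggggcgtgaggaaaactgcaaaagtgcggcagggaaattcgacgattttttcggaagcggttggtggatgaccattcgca
rps-1/ifet-1: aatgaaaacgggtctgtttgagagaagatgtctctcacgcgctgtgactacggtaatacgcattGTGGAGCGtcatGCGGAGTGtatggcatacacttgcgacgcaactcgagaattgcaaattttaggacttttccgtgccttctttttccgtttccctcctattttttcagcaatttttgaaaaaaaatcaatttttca
K11H12.8/rpl-15: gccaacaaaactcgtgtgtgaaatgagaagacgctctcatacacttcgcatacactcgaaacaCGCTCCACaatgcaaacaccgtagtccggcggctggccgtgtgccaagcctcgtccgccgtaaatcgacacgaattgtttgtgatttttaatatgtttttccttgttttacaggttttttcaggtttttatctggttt
lin-54/rpl-12: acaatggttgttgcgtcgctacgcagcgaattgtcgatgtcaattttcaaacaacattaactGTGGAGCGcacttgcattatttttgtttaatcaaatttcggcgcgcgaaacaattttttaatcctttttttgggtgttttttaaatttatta

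Signals of the 192 regions ran from 35.2 to 185 with a median of 41.0, and the median over all ranked peaks was 17.01. The quartiles of the regions were 37.3 and 47.4, so most lay close to the minimum. There were 35 regions at 50 or more and 4 at 100 or more. Beside the signal, the ranked list gives each region's signal in the 2 lists that were compared. For every region that had a peak in a replicate's own ranked list, 172 in replicate 1 and 175 in replicate 2, a peak there was identical in position and signal to the first or the second compared list, in that order.

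The F44E5.5/F44E5.4 region had a signal of 185, with 110 in the first compared list and 72.4 in the second. The tasp-1/K01G5.10 region followed with 174, and with 96.3 and 78.4 in the first and second lists. The Y17G9B.5/rpl-20 region had 122, with 54.3 and 61.6. Each of these 3 regions was overlapped by a thresholded peak in all 4 of the authors' thresholded lists. The tag-340/nhl-2 region had 115.1, with 54.0 in the first list and 59.0 in the second; nhl-2 encodes a TRIM-NHL protein that works with microRNAs. The hsp-90/C47E8.4 region had 91.7, with 50.5 and 37.9. The hsr-9/rps-19 region (chrI:9625953-9626276) had 89.5, with 44.9 and 48.1, and hsr-9 is related to the DNA damage protein 53BP1. None of these 6 regions differed by as much as 2-fold between the lists.

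**Figure D1:**
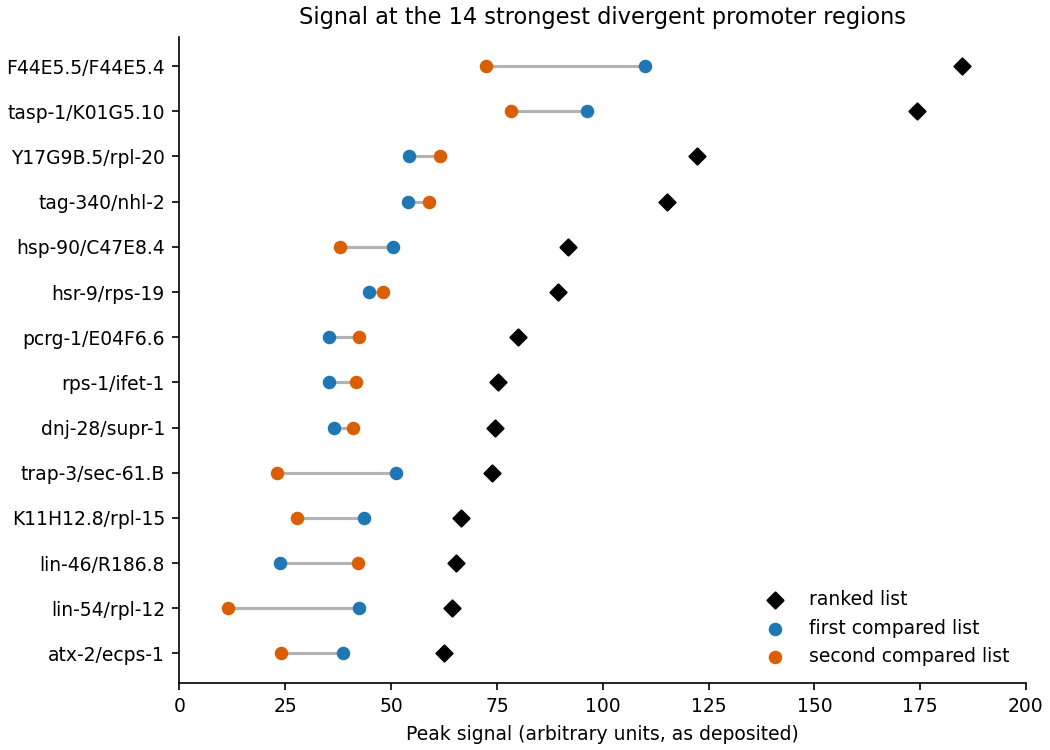
Peak signal (horizontal axis, arbitrary units as deposited) at the 14 strongest divergent promoter regions, ordered by signal from top to bottom. Diamonds give the ranked list and circles the 2 compared lists, joined by a line; the lin-54/rpl-12 region has the largest ratio between the lists, with 42.3 in the first and 11.6 in the second.

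Signals were lower in the next 8 regions, and the compared lists stood further apart in several of them. The pcrg-1/E04F6.6 region (chrII:7200126-7200449) had 80.1, with 35.4 and 42.5 in the first and second lists. The region of rps-1 and ifet-1, which encodes a repressor of translation that binds the cap-binding protein, had 75.3, with 35.3 and 41.6. For dnj-28/supr-1 (chrI:2996104-2996427), where dnj-28 encodes a J-domain co-chaperone, the signal was 74.6, with 36.4 and 40.9. These 3 regions were even between the lists. The trap-3/sec-61.B region (chrIV:2388948-2389271) lies between 2 genes of protein entry into the endoplasmic reticulum, which encode a translocon-associated protein and a subunit of the Sec61 channel. It had 73.9, with 51.1 in the first list and 23.1 in the second, over 2-fold apart. The K11H12.8/rpl-15 region had 66.6, with 43.5 and 27.7. The region at lin-46, a gene of developmental timing, and R186.8 (chrV:12967908-12968231) had 65.2, with 23.7 and 42.2. The atx-2/ecps-1 region (chrIII:10461207-10461530), where atx-2 encodes the worm ataxin-2, had 62.4, with 38.6 and 23.9. Of these 14 summits, that of hsp-90/C47E8.4 lay in an intron of a longer hsp-90 transcript and the others outside protein-coding genes.

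At the lin-54/rpl-12 region the compared lists and the replicates' own lists differed. LIN-54 is the DNA-binding subunit of the DREAM complex, a repressor of cell cycle genes. The region had 64.3, with 42.3 in the first compared list and 11.6 in the second. Its irreproducible discovery rate (IDR) was 0.386. The IDR estimates the share of peaks ranked at least as high that fail to recur between replicates. Replicate 2 alone held a second, stronger peak over the same region with a signal of 30.9, which the comparison of the replicates did not use. The his-62/his-61 region, at replication-dependent histone genes, had the same feature, with 11.4 in the second compared list and 28.1 for the stronger overlapping peak of replicate 2.

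Few of the 192 regions passed the authors' own threshold. A peak of the thresholded list comparing the true replicates overlapped 11 of them, where 0.269% of all ranked peaks were so overlapped. The count was 14 for the pooled list, with 0.325% of ranked peaks overlapped. It was 6 for replicate 1 alone, with 0.0703%, and 5 for replicate 2 alone, with 0.0831%. Since the regions were chosen on signal, which the threshold also reflects, nothing is read from these shares. In all 7 regions were in at least 3 of the 4 lists and 178 in none. The 7 were those of F44E5.5/F44E5.4, tasp-1/K01G5.10, Y17G9B.5/rpl-20, tag-340/nhl-2, hsp-90/C47E8.4, hsr-9/rps-19 and pcrg-1/E04F6.6. Of these, tag-340/nhl-2 and pcrg-1/E04F6.6 lay within 200 bp of an annotated noncoding RNA gene, so their signal may not belong to the protein-coding promoters. The IDR was at most 0.01 at 11 regions, at most 0.05 at 30 and over 0.5 at 12, with a median of 0.208. Outside the 14 strongest, only atp-1/mcrs-1 (signal 61.3, IDR 0.00864; atp-1 encodes the alpha subunit of ATP synthase) and npp-6/spd-5 (signal 55.3) were overlapped by a thresholded peak.

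The compared lists were within 2-fold of each other at 157 of the 192 regions, or 81.8%. The share was 78.6% among 1540 peaks of the same minimum signal at one-directional promoters and 65.4% among 2358 weaker peaks at divergent promoters. The regions were chosen on a signal close to the sum of the lists, so these shares were not tested. The lists were over 3-fold apart at 10 regions, and the ratio reached 5.45 at F53H1.4/ddx-46, with 5.99 in the first list and 32.7 in the second. At rpn-3/hsp-110, where hsp-110 encodes an Hsp70 exchange factor, the first list had 6.98 and the second 34.1. Across the 192 regions Spearman's rho between the lists was -0.184, and it was 0.0470 across the weaker divergent peaks. This is a description over sites that share both libraries and 1 further file, and the minimum on pooled signal by itself removes regions that are low in both.

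**Figure D2:**
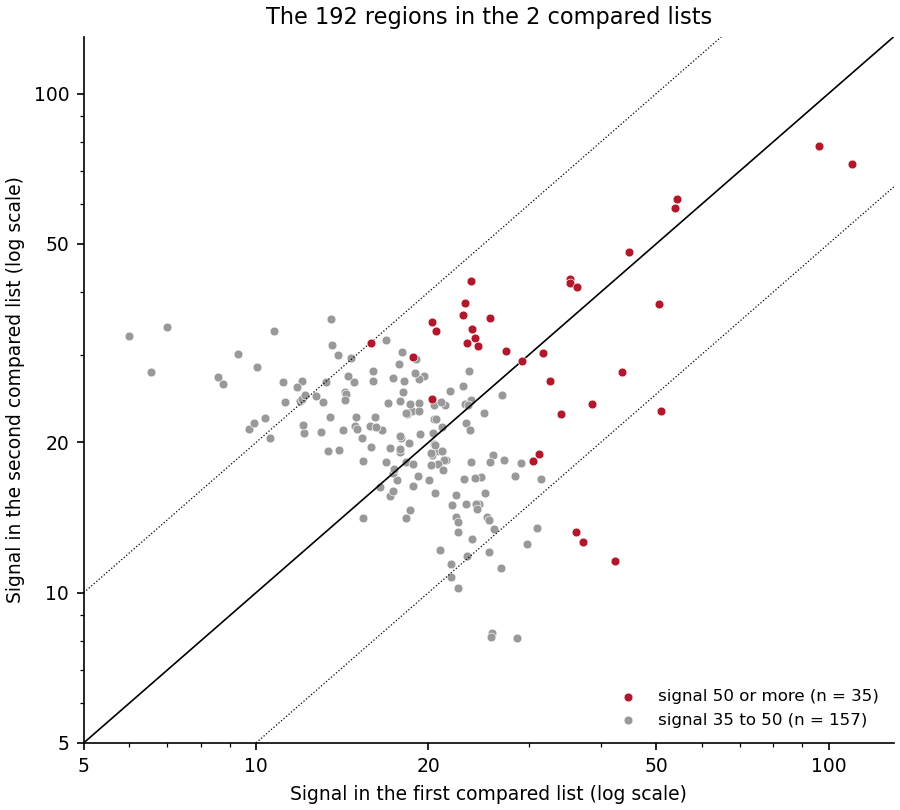
Signal of the 192 regions in the first (horizontal axis) and second (vertical axis) compared list, both on log scales in arbitrary units as deposited. The solid line marks equal signal and the dotted lines 2-fold; 157 regions lie within 2-fold, and the 35 regions of signal 50 or more are drawn in red.

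The lists of single replicates gave part of the same set. When the 6278 strongest peaks of replicate 2 alone were taken, 191 lay at divergent promoters, and they overlapped 105 of the 192 regions, or 54.7% of the regions and 54.97% of the 191. From replicate 1 alone 186 peaks were chosen, which overlapped 101 regions, or 52.6% of the regions and 54.3% of the 186. All 14 strongest regions were found in each replicate alone. Just above the minimum signal were F22F7.11/bgnt-1.2 with 35.15, T05F1.9/T05F1.15 with 35.16 and rsp-1/rsp-2 with 35.18. The divergent peaks just below were C49H3.6/arp-11 with 34.97, cox-6B/Y71H2AM.20 with 34.94 and C54F6.6/C54F6.15 with 34.93.

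Most summits lay in the gap between the divergent starts. Of the 192 summits 127 were there, or 66.1%, against 1412 of 2358 weaker divergent peaks, or 59.9%. A further 64 summits lay past a start, inside 1 of the genes, and at 1 region the starts overlapped. The share depended on signal. It was 32 of 35, or 91.4%, at a signal of 50 or more and 95 of 157, or 60.5%, from 35 to 50. Below the minimum it was 59.4% of 850 peaks from 20 to 35, 60.02% of 918 from 10 to 20 and 60.3% of 590 under 10. Outside all protein-coding genes were 105 of the 192 summits, or 54.7%, so some summits between the starts lay inside a gene. The share outside genes followed the same course. It was 80% of the 35 strongest regions, 49.0% of the other 157 and 48.1% of the divergent peaks from 20 to 35. The change thus came above a signal of 50 and not at the minimum. No test was made, since these regions were ranked by the same signal.

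**Figure D3:**
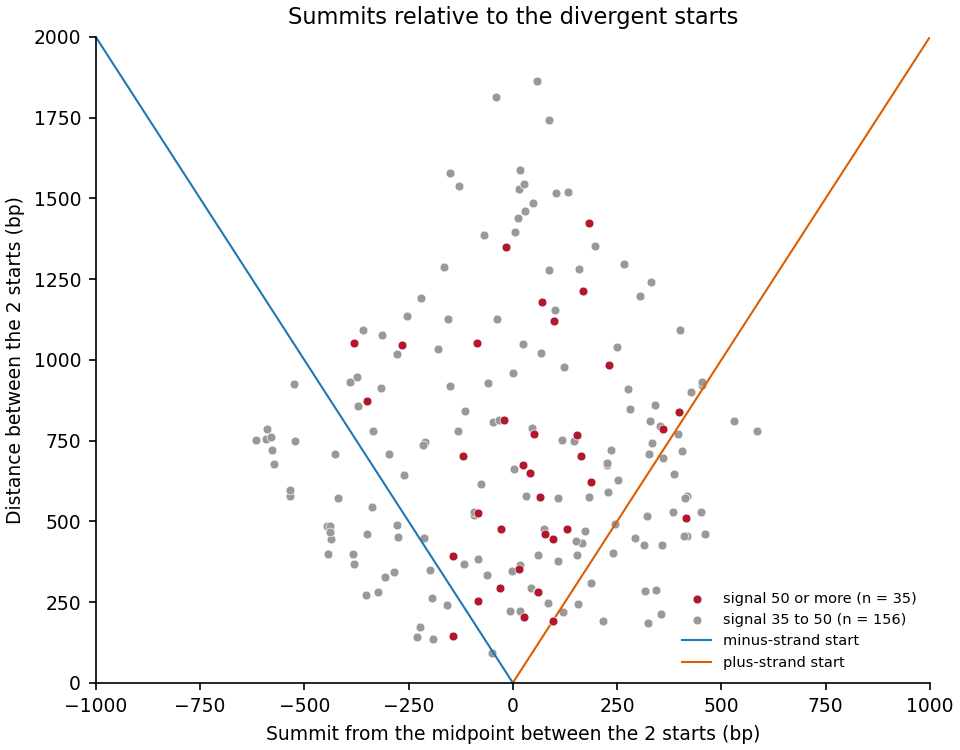
Position of each summit relative to the midpoint of the 2 divergent starts (horizontal axis, bp) and the distance between the starts (vertical axis, bp) for 191 regions; the region with overlapping starts is left out. Summits between the slanted lines lie between the starts, as do 32 of the 35 regions of signal 50 or more (red).

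The distance between the starts was close to that of the peaks and gene pairs set beside it. Its median was 679 bp over the 192 regions, with quartiles of 437 and 930 bp, against 657 bp for weaker divergent peaks. It was 678 bp for all 2560 adjacent divergent gene pairs within 2000 bp in the annotation. The measures differ, since annotated pairs were taken between the outer ends of adjacent genes and peaks between the starts nearest the summit. The promoter window also limits the distance at peaks. Starts were under 500 bp apart at 35.4% of regions, against 33.0% of weaker divergent peaks and 35.7% of annotated pairs. The summit was a median of 168 bp from the nearer start, against 157 bp for weaker divergent peaks. Of the 127 summits between the starts 59, or 46.5%, fell in the central one of 3 equal parts of the gap, against 43.3% of the weaker peaks. The strongest regions show both layouts. In the F44E5.5/F44E5.4 promoter the summit lay 161 bp from the start of F44E5.5 and 190 bp from that of F44E5.4, near the middle of a gap of 351 bp. In the tasp-1/K01G5.10 promoter it lay 32 bp upstream of tasp-1 and 753 bp upstream of K01G5.10. At hsp-16.41/hsp-16.2, with a gap of 221 bp, the summit was 93 and 128 bp from the starts.

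The regions fell on 188 distinct nearest gene pairs. Of these, 169 are adjacent genes in the annotation, which is 6.60% of the 2560 adjacent divergent pairs. In all 384 genes had a start in the window of a region, which is 1.92% of 19973 protein-coding genes and 6.53% of the 5877 that have an opposite-strand start close enough. These genes were found through the choice itself, so the shares serve as a background for the lists below. More than 2 genes had a start in the window at 10 regions. No region overlapped another, but 4 pairs had 2 separate regions. The hsp-90/C47E8.4 gene pair had peaks of 91.7 and 44.5, with summits 895 bp apart. Their nearest starts were different ones of the same 2 genes, 675 bp apart at the stronger peak and 243 bp at the weaker. The clec-178/skn-1 promoter had 47.9 and 41.0 with summits 813 bp apart, and skn-1 encodes the worm counterpart of the Nrf stress factors. The other pairs with 2 regions were mex-1/W03C9.5 and mrps-25/Y55F3AM.13.

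G and C content was higher at the summits of stronger regions. Within 100 bp of the summit G and C averaged 42.1% ± 7.64 over the 192 regions (SD), against 42.97% ± 7.75 at strong one-directional promoters and 37.5% ± 6.67 at weaker divergent ones. The 35 regions of signal 50 or more held 47.3% ± 7.40, the other 157 held 40.96% ± 7.21, and divergent peaks from 20 to 35 held 38.9% ± 6.74. G and C content can affect recovery in sequencing libraries, and its part in the signal was not tested. Regions with a ribosomal protein gene were not rich in G and C, with 39.7% ± 4.86 (n = 14). At the trap-3/sec-61.B summit the value was 59.7%, and at Y17G9B.5/rpl-20 it was 37.3%.

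The words shown above were at 14 of the 192 regions, or 7.29%, within 100 bp of the summit on either strand. The share was 22 of 1540, or 1.43%, at strong one-directional promoters and 22 of 2358, or 0.933%, at weaker divergent ones. At the midpoints of the 2560 annotated divergent pairs it was 1.56%. CGCTCCAC was at 11 regions and CACTCCGC at 5. Either word was at 6 of the 14 strongest regions, at 8 of the 35 with a signal of 50 or more and at 6 of the other 157. The 8 were tasp-1/K01G5.10, Y17G9B.5/rpl-20, tag-340/nhl-2, rps-1/ifet-1, K11H12.8/rpl-15, lin-54/rpl-12, ile-2/trap-2 (signal 52.8) and rps-12/ska-3 (51.6). Both words stood together at tasp-1/K01G5.10, with 3 sites in all, and at rps-1/ifet-1, with 1 site of each. Because the words were picked from these regions, their counts describe the regions and test nothing.

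**Figure D4:**
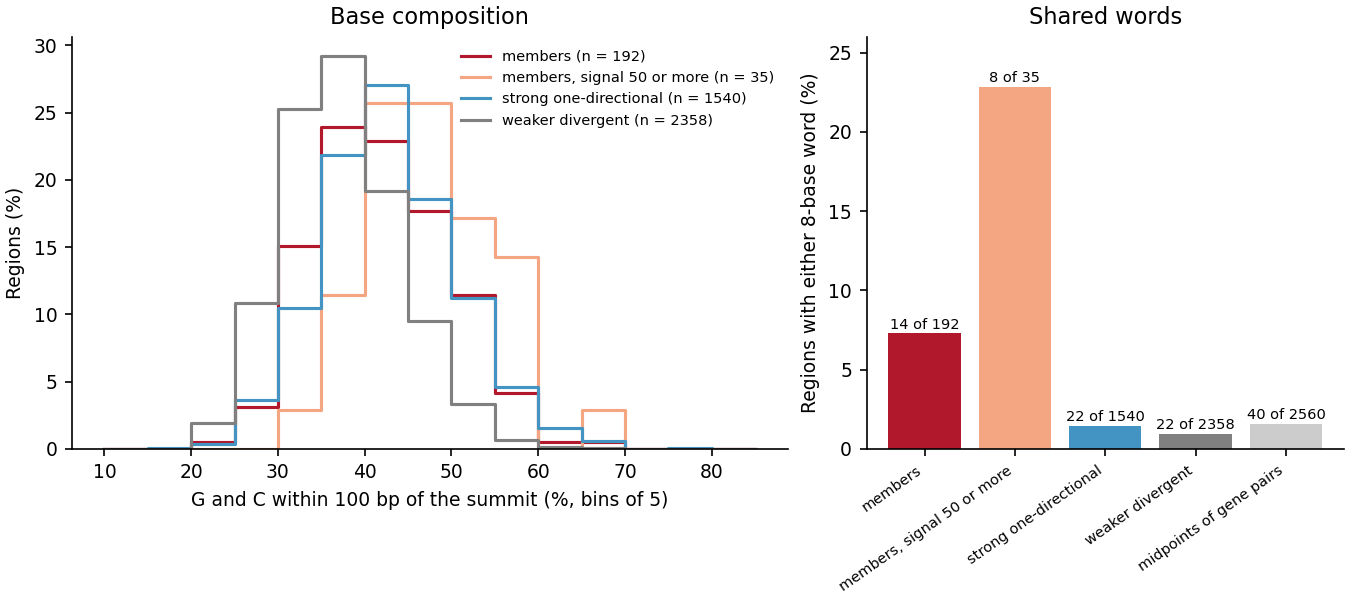
Left, share of regions (vertical axis, %) by G and C within 100 bp of the summit (horizontal axis, bins of 5%), for the 192 members, the 35 of them with a signal of 50 or more, strong one-directional peaks and weaker divergent peaks. Right, share of regions in each group with CGCTCCAC or CACTCCGC within 100 bp, with counts above the bars; it is 22.9% at the 35 strongest members and 0.933% at weaker divergent peaks.

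The words stood at regions with and without ribosomal protein genes. Of the 14 regions with a cytosolic ribosomal protein gene 6 had a word, against 8 of the other 178, or 4.49%. In the 400 bp upstream of the gene's outermost start, a word was found at 5 of the 15 cytosolic ribosomal protein genes at a region and at 3 of the 66 at no region, or 4.55%. For other genes it was 22 of 369 at a region, or 5.96%, and 289 of 19523 at no region, or 1.48%. Since the words came from these regions, a higher share at the regions than elsewhere was set by the choice, and nothing is read from it. Of the 14 regions with a word 13 had no copy of their sequence elsewhere in the genome, and 2 lay within 200 bp of an annotated noncoding RNA gene.

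The SMAD core was about as frequent at these regions as at the peaks they were compared with. GTCT or its reverse complement AGAC stood within 50 bp of the summit at 83 of 192 regions, or 43.2%. The share was also 43.2% at strong one-directional promoters, and it was 41.0% at weaker divergent ones. There were 2 or more sites at 16.7% of regions, against 12.9% and 10.7%. Within 50 bp of the summit pck-2/R11A5.6 had 7 sites, trm-2A/fmo-5 had 5 and num-1/sbt-1 had 4. Their IDR was 0.272, 0.296 and 0.489, in that order, and the pck-2/R11A5.6 sequence has 537 copies in the genome. The F44E5.5/F44E5.4 and hsp-16.41/hsp-16.2 regions had 3 each. The palindrome GTCTAGAC was at 0 of 192 regions and at 0.0649% of strong one-directional peaks.

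Other words searched, within 100 bp of the summit on both strands, were spread unevenly. GCGCGC was at 7.81% of the 192 regions, against 5.45% of strong one-directional and 2.84% of weaker divergent peaks. The E-box CACGTG was at 2.60%, against 6.04% and 4.03%. TGACGTCA, the cyclic AMP response element, was at 0 regions, against 1.69% and 0.848%. GAGAGAGA was at 1.56%, against 4.35% and 1.31%. GATAAG, the core of GATA factor sites, was at 4.69%, against 6.69% and 9.12%, and TATAAA at 15.1%, against 13.6% and 21.2%. TTCNNGAA was at 26 regions, or 13.5%, against 12.1% and 14.1%. Over the whole set it was therefore as frequent as elsewhere. It was at 6 of the 35 regions of signal 50 or more, or 17.1%, and at 20 of the other 157, or 12.7%. It occurred 4 times in the strongest region and was in 4 of the 14 strongest. These were F44E5.5/F44E5.4, hsp-90/C47E8.4, dnj-28/supr-1 and atx-2/ecps-1, and dnj-28/supr-1 lies in a repeated sequence with 51 copies.

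Of the 13 gene lists compared, cytosolic ribosomal protein and chaperone genes had the most genes at a region, and the highest shares of those with a divergent partner. Cytosolic ribosomal protein genes were at a region in 15 of 81 cases, which is 28.3% of the 53 with a divergent partner, beside 6.53% of all genes with one. Their signals ran from 37.7 to 122 with a median of 51.1. The summit was nearer the ribosomal protein gene than its partner in 7 of 15 cases, so position did not assign these regions to them. At set-21/rpl-7A (56.3, with 32.6 and 26.6 in the compared lists) the summit lay 43 bp upstream of rpl-7A. At rps-18/sec-61.A (51.1, with 18.8 and 29.7) it lay 691 bp from rps-18 and 658 bp from sec-61.A, which encodes the channel subunit Sec61 alpha. The other regions of this list, in order of signal, were nfx-1/rps-13, picd-1/rps-27, ekl-4/rps-20, rpl-36/rps-14, F36A2.9/rps-15 and rpl-33/farl-11, all between 37.7 and 45.5.

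Chaperone genes were at a region in 10 of 62 cases, or 27.8% of the 36 with a divergent partner. Genes that share a region count separately in all lists, here F44E5.4 with F44E5.5 and hsp-16.41 with hsp-16.2. The 10 genes lay at 9 regions, of which hsp-90 had 2. Their signals ran from 36.2 to 185 with a median of 44.5 over 11 gene and region pairs. Beside the regions already described these were Y55F3AR.2/cct-8 (signal 55.8), where cct-8 encodes a subunit of the cytosolic chaperonin, and dnj-12/mtx-1 (41.0). The remaining ones were rpn-3/hsp-110 (39.0), hsp-16.41/hsp-16.2 (38.4) and nhr-47/dnj-19 (36.2). At hsp-16.41/hsp-16.2 the compared lists had 20.2 and 19.02, close to each other, but the IDR was 0.181.

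The other lists had fewer regions. Splicing genes were at a region in 6 of 34 cases, or 24% of the 25 with a divergent partner, among them rsp-1 and rsp-2, which encode SR proteins and share 1 promoter with a signal of 35.2. Translation factors and aminoacyl-tRNA synthetases were at a region in 7 of 69 cases (20% of 35), led by eif-3.I/abtm-1 with 49.2. Mitochondrial ribosomal protein genes had 5 of 70 (16.7% of 30), all with signals under 44. Proteasome genes had 3 of 36 (11.1% of 27) and respiration genes 2 of 34 (10.5% of 19). Histone genes had 6 of 81, or 8.96% of the 67 with a divergent partner, led by htz-1/wapl-1 with 62.2, where htz-1 encodes the variant H2A.Z. Nuclear hormone receptor genes had 5 of 269 (10.9% of 46), led by nhr-169/nhr-89 with 57.8. Polymerase and general factor genes had 1 of 48 (6.25% of 16). Among bZIP genes it was 1 of 20, namely skn-1 (25% of the 4 with a divergent partner).

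No gene of the DAF-7 pathway was at a region, with 0 of 11, and none of the 11 has a divergent partner, so the choice could not have found one. Of 13 genes of the related Sma/Mab pathway 3 have a divergent partner, and 0 were at a region. At a minimum signal of 50 the lists kept 17 of the 61 entries, of which 8 were cytosolic ribosomal protein genes and 5 chaperone genes.

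**Figure D5:**
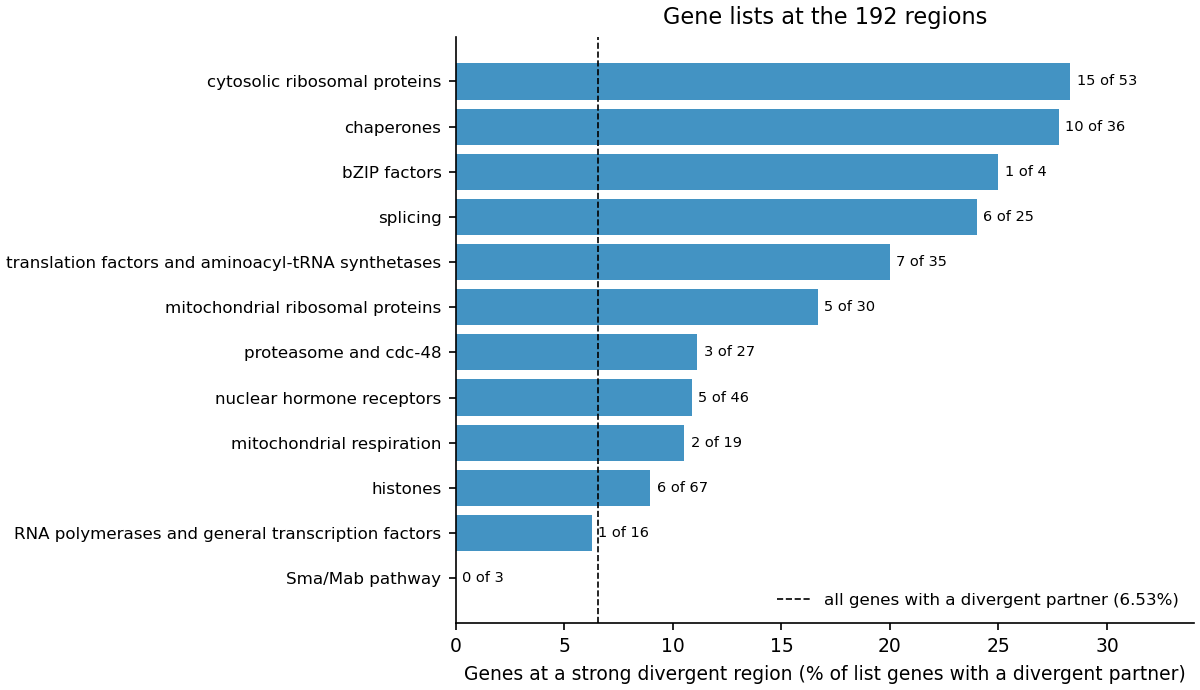
Share of list genes at a region (horizontal axis, % of list genes that have a divergent partner) for the 12 lists with any such gene, with counts beside the bars. The dashed line marks the 6.53% of all genes with a divergent partner; cytosolic ribosomal protein and chaperone genes are at 28.3% and 27.8%.

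Chromosome X held 5 of the 192 regions, or 2.60%, against 16.3% of strong one-directional peaks, 5.26% of weaker divergent peaks and 6.95% of annotated divergent pairs. The 5 were ile-2/trap-2, git-1/mboa-7, C10A4.10/C10A4.13, C40C9.3/acr-9 and tbc-11/pifk-1, with signals from 37.3 to 52.8. Annotated divergent pairs were also few on X, though their share of 6.95% was above the 2.60% of the regions. The reason for the low count on X was not tested. The other chromosomes held between 31 and 43 regions each.

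Some regions have near-identical copies in the genome, where reads could belong to more than 1 place. By sequence alignment of at least 90% identity over at least 100 bp, 20 of the 192 regions (10.4%) had a copy elsewhere, against 13.2% of strong one-directional and 10.5% of weaker divergent peaks. The dnj-28/supr-1, npp-6/spd-5 and atad-3/nrde-2 regions share 1 repeated sequence, with 51, 56 and 52 copies. The ubc-6/aka-1, usp-48/F30A10.9 and F20D12.12/czw-1 regions share another, with 111, 112 and 83. The pck-2/R11A5.6 region had 537 copies, lin-46/R186.8 had 31 and the histone region his-62/his-61 had 9. The set-21/rpl-7A region had 1, on chromosome X, of 95.7% identity over 325 bp. These signals are uncertain for that reason, and how the authors treated reads that align in several places was not stated in the files or labels. The remaining 12 of the 14 strongest regions had no such copy.

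Noncoding genes outside the 4 excluded kinds lay within 200 bp of 17 regions, or 8.85%, against 8.18% of strong one-directional and 6.53% of weaker divergent peaks. Among the 14 strongest these were at tag-340/nhl-2, pcrg-1/E04F6.6, rps-1/ifet-1 and trap-3/sec-61.B. At pcrg-1/E04F6.6 the noncoding gene is mrpr-1, which is annotated as ncRNA and so was not excluded by the choice of regions. For these 4 regions a signal of the protein-coding promoters and of the noncoding gene cannot be told apart. The region nearest to the daf-8 locus was 52514 bp away and the one nearest to unc-119 33970 bp away. How much flanking DNA the transgene carries is not known here, so whether it repeats any region was not tested.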

How the data were processed

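DNA recovered by immunoprecipitation of the GFP tag was measured in 2 replicates of 1 group. The authors deposited ranked and thresholded peak lists on ce11, with a signal per peak and, per the layout of the lists, the −log10 of the IDR. The sources used here do not give the peak caller, aligner, versions or depth scaling. The replicates' lists have 1 source file in common, and thresholding drew on 1 more annotation file.

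Peaks were placed with Ensembl release 115 (WBcel235, the same assembly as ce11), using Python 3.11.15, pandas 2.3.3 and scipy 1.17.1. A start is any protein-coding transcript start, and a pair is the nearest start of each strand. Thresholded peaks were counted at an overlap of at least 1 bp. Sequence came from RefSeq, and copies elsewhere were found with BLAST 2.17.0. The sorting of peaks into promoter classes was tried on simulated peaks, all of which were recovered. Divergent ones had the summit midway between the starts. Summits past a start, genes with several starts and the signal minimum were not simulated, so these parts of the choice went untested. Named regions are the 14 strongest, those in at least 3 of 4 thresholded lists, the 3 on either side of the minimum and those of genes in 13 lists, with further ones named after their values were seen. The regions and lists were chosen with earlier results of these data known. No tests were run. A mean or median counts as moved in the alternatives when it shifts by more than the SD between the 2 single-replicate lists. A share counts as moved when it leaves the 95% binomial interval over the regions, which are not replicates, so this interval is only a yardstick.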

Additional observations from a re-analysis of the deposited data

How the results depend on the processing

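With a minimum signal of 50 there were 35 regions, 91.4% of summits lay between the starts, G and C averaged 47.3%, 22.9% of regions had CGCTCCAC or CACTCCGC and the gene lists had 17 entries in place of 61. With a promoter window from 500 bp upstream to 100 bp downstream there were 61 regions, 80.3% of summits lay between the starts, the starts were a median of 439 bp apart, G and C averaged 41.5% and 13.1% had either word; the narrower window admits only starts close to the summit. GTCT or AGAC was at 67.2% of regions within 100 bp of the summit in place of 50, and G and C averaged 43.4% within 50 bp in place of 100. Leaving out 1 replicate gave 186 to 191 regions, 60.7% to 70.4% of summits between the starts, 41.36% to 41.40% with GTCT or AGAC, 5.24% to 5.91% with either word, a median distance of 577 to 703 bp and a G and C mean of 42.07% to 42.14%. The share with GTCT or AGAC was 48.6% at a minimum of 50 and 42.6% in the narrower window. The pooled ranked list returned the same 192 regions with the same signals, so it is no separate check of the results. A distance of 500 bp from small RNA genes gave 190 regions and moved no result. Requiring the summit inside the thresholded peak changed no count. Alternatives for the 2 words were chosen after seeing the data. No paired analysis was possible because there is 1 group. Unknown depth leaves the precision of each signal unknown.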
